A study of Mus musculus with 4 samples.

Results

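Oligodendrocyte precursor cells (OPC) of the mouse superior colliculus, a midbrain centre for vision and orienting, were followed from late gestation to P21. Their nuclei were taken as those that the authors' deposited annotation gives the subtype OPC, which selected 261 of 9724 nuclei. All 261 lay in the authors' oligodendrocyte-lineage class, beside 101 nuclei of the subtype Committed Oligodendrocyte and 188 of the subtype Myelinating Oligodendrocyte. OPC are dividing glia that express the platelet-derived growth factor receptor alpha (Pdgfra) and the proteoglycan NG2 (Cspg4). They tile the brain, receive synaptic input from neurons, and either renew themselves or leave the cycle, commit and become the oligodendrocytes that wrap axons in myelin. In the midbrain, myelination gathers pace in the weeks after birth.

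The 4 groups were superior colliculus of C57BL/6J mice at embryonic day 19 (E19) and postnatal days 4, 8 and 21 (P4, P8, P21), with no genotype or treatment named in the labels. Each group was 1 library of nuclei purified through sucrose and captured with 10x Genomics 3′ v3 chemistry, and each library pooled several animals, of a number, sex and litter origin not given in the sources used here. In one place the design text writes another embryonic day in brackets beside day 19, and the stage label E19 was followed. With 1 library a stage there was no replicate check, no test between stages was made, and every interval below covers counting error only, at the 95% level. From the youngest stage to the oldest, OPC numbered 46, 42, 109 and 64 nuclei, and gave 190613, 168241, 512433 and 299483 unique molecular identifiers (UMIs, counted RNA molecules). Their median depth stayed between 3796 and 4515 UMIs per nucleus, while that of neurons went from 7279 at E19 to 16388 at P21. The median share of mitochondrial UMIs in OPC was 1.10%, 1.63%, 0.775% and 0.541% from the youngest stage to the oldest. That of ribosomal protein UMIs was 0.826%, 0.630%, 0.442% and 0.235% in OPC, and 0.528%, 0.354%, 0.260% and 0.165% in all nuclei. The part of either share in the differences below was not tested. In all, 9 cell barcodes occurred in more than 1 library, 1 of them in an OPC nucleus, and no barcode was an OPC in more than 1 library.

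At E19, OPC made up 1.78% of all nuclei (exact Clopper-Pearson interval 1.31% to 2.37%). The P4 share was 1.76% (1.27% to 2.37%), the P8 share 4.35% (3.59% to 5.23%) and the P21 share 2.85% (2.20% to 3.62%). The E19 and P4 shares overlapped, and the P8 share was the highest, its interval touching only that of P21. Among non-neuronal nuclei alone OPC made up 13.0%, 9.50%, 19.9% and 7.74% in that order, so that P8 was highest by this denominator too, while P21 was lowest. Within the lineage class OPC were 46 of 47 nuclei in the E19 library, 42 of 54 in P4, 109 of 143 in P8 and 64 of 306 in P21. The lower lineage share at P21 went with 187 myelinating nuclei in that library, against 1 at P8 and 0 at the earlier stages. Dissection, nuclear recovery and age cannot be told apart behind these shares, because each age was 1 library.

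**Figure D1:**
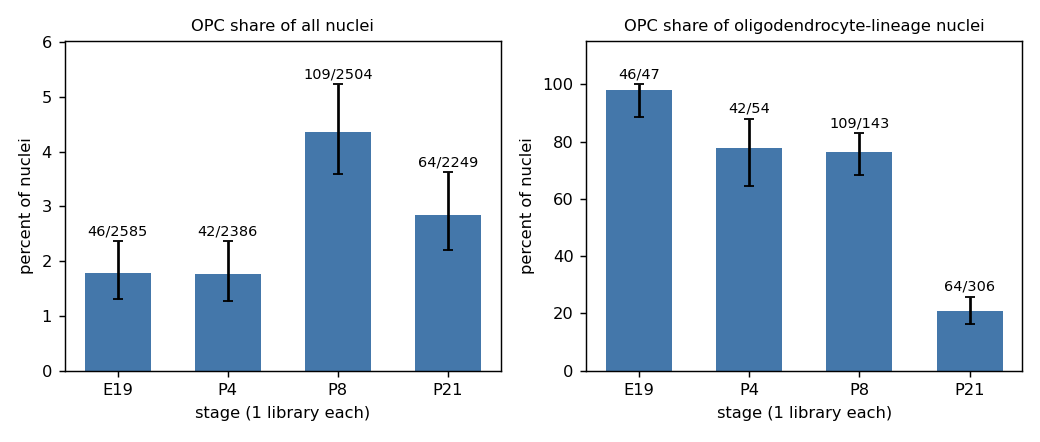
Share of OPC nuclei by stage, as a percent of all nuclei and of the oligodendrocyte-lineage class, with exact Clopper-Pearson 95% intervals (counting error only) and 1 library per stage. OPC peak at 4.35% of all nuclei at P8, and make up 20.9% of the lineage class at P21.

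The label was set beside the markers of the cell type. The authors made it from these same profiles, so the marker values describe the label and are no test of it. At least 1 UMI of Pdgfra or Cspg4 was found in 45 of 46 OPC nuclei of E19, 42 of 42 of P4, 102 of 109 of P8 and 58 of 64 of P21. Pdgfra (chromosome 5, 75152292 to 75198215, plus strand, GRCm38), the receptor that keeps OPC dividing and alive, had 1243 counts per 1000000 UMIs (CPM) in OPC of E19, and 838, 761 and 761 in those of P4, P8 and P21. At P21 it reached 3.56 UMIs per OPC nucleus (exact Poisson interval 3.12 to 4.06), against 0.0183 in neurons, 0.0364 in committed and 0.0267 in myelinating oligodendrocytes. Vascular and leptomeningeal cells, which also use this receptor, had 0.820 Pdgfra UMIs per nucleus at P21, but only 0.0504 of Cspg4 and 0.0216 of Sox10, where OPC had 2.34 and 1.12. Cspg4 (chromosome 9, 56865033 to 56899870, plus strand) had 341 CPM in OPC of E19, and 285, 301 and 501 at the later stages. The E19 and P21 intervals of Cspg4, 263 to 435 and 424 to 588 CPM, overlapped only at their edges.

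The share of OPC nuclei with a Pdgfra UMI was 97.8%, 95.2%, 89.9% and 85.9% from E19 to P21, with median depths of 4157, 3796, 4515 and 4467 UMIs. After each nucleus was thinned to 2000 UMIs, which left out none, the shares were 93.5%, 88.1%, 71.6% and 71.9%. In neurons, which lack the gene and were sequenced more deeply, the unthinned shares were 2.87%, 4.84%, 4.65% and 1.69%. Of Cspg4 the unthinned OPC shares were 58.7%, 64.3%, 65.1% and 82.8%, and the thinned ones 47.8%, 42.9%, 46.8% and 60.9%. The 2 defining markers of OPC therefore stood in different order over age: the Pdgfra level was highest at E19 and the Cspg4 level at P21.

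The transcription factors that hold oligodendrocyte identity were present at every stage. Sox10 had 357 CPM in E19, 422 in P4, 396 in P8 and 240 in P21 nuclei. Olig2 had 178, 160, 195 and 144 CPM, with overlapping intervals at E19 and P21 (124 to 249 and 104 to 193). Olig1, which shares their role in the lineage, was an exception, with 435 CPM at E19 and then 160, 148 and 170. Most of that difference lay between E19 and P4, at a log2 ratio of -1.41 (5 CPM added to both values here and below). Nkx2-2, a regulator of the step to differentiation, went the other way, with 31.5 CPM at E19 and 131, 99.5 and 107 after birth.

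Counts over all genes give the scale for what follows. Between E19 and P4, 123 of 2448 genes that reached 100 CPM in 1 stage or both were past 2-fold higher at P4 (5.02%) and 95 lower (3.88%). From P4 to P8 the counts of 2337 genes were 32 higher (1.37%) and 89 lower (3.81%). From P8 to P21 the counts of 2265 genes were 92 higher (4.06%) and 73 lower (3.22%). Over the whole span from E19 to P21, 245 of 2496 genes were higher (9.82%) and 305 lower (12.2%), with a median log2 ratio of 0.06 over all of them. These counts rest on pairs of libraries, and the steps share libraries. Genes that reached 100 CPM only in the later stage could not be counted as lower. Those that reached it only in the earlier stage could not be counted as higher.

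Of the 20 precursor genes listed for OPC, all of which had at least 100 CPM at E19 or P21, 6 were past 2-fold higher at P21 than at E19 and 1 was lower, with a median log2 ratio of 0.12. The backbone of the list differed little: Ptprz1, a receptor phosphatase, went from 2392 to 2120 CPM, Pcdh15, a protocadherin, from 4895 to 4792, and Lhfpl3 from 7969 to 6742. From P8 to P21, 4 of the 20 were past 2-fold higher, none lower, and all 4 encode matrix proteins or an enzyme that trims sialic acid. These are Neu4, Matn4, Tnr and Vcan. Neu4 and Matn4 were under 100 CPM at P8, so they were measured through P21 alone and could not be counted as lower. The same held for Neu4, Matn4 and Nkx2-2 among the 6 genes higher at P21 than at E19. The 250 bases before each start site are shown because these 4 genes mark the latest change within the precursor list. They come from RefSeq on GRCm38.p6, read 5′ to 3′ on the gene's strand, with capitals marking a match to ACAAAG, a core letter string of SOX binding sites, or to GGGCGG, the GC-box, on either strand. Neu4 lies at chr1:94020243-94020492 (plus), Matn4 at chr2:164405161-164405410 (minus), Tnr at chr1:159523519-159523768 (plus) and Vcan at chr13:89742513-89742762 (minus).
Neu4: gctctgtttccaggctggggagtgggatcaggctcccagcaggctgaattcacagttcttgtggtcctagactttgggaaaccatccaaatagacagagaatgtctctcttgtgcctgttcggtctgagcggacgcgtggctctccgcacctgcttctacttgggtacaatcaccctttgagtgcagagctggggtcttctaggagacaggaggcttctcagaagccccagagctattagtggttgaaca
Matn4: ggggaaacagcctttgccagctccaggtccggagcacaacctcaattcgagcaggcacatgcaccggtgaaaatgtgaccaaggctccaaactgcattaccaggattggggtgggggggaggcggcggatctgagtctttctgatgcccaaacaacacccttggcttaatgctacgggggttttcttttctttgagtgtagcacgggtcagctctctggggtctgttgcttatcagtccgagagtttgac
Tnr: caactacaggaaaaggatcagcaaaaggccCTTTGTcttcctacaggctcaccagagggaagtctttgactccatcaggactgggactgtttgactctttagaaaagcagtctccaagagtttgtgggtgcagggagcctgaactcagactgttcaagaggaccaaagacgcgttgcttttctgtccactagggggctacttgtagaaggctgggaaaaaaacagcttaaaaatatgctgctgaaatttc
Vcan: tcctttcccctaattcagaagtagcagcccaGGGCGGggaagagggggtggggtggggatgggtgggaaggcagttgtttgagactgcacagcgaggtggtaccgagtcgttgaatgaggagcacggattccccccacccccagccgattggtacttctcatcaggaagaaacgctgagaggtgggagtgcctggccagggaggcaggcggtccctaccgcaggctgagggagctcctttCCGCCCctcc
The Tnr window held 1 SOX string and the Vcan window 2 GC-boxes, while the Neu4 window and this Matn4 window held neither. A second annotated Matn4 start, at chr2:164404819-164405068 for its upstream window, held 1 GC-box. None of the 5 windows held CAGCTG, the letter string of an E-box bound by OLIG2-type factors. Over all 32851 RefSeq windows of this length, 16.5% held the SOX string, 32.7% the GC-box and 13.0% the E-box, and the matches shown do not overlap one another. A match is a string of letters, not evidence of binding.

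Neu4 (chromosome 1, 94020451 to 94028334), the sialidase, had 0 UMIs in OPC of E19 and of P4, 12 in those of P8 and 91 in those of P21, or 0, 0, 23.4 and 304 CPM. The P21 level was at least 19.3-fold higher than at E19, where 3 counts were taken as the upper limit of a count of 0. Neu4 UMIs were spread over many nuclei. At P8, 8 of 109 OPC had one (7.34%, or 1.83% after thinning), and at P21 40 of 64 (62.5%, or 45.3% after thinning). At 0 of 46 and 0 of 42 nuclei, E19 and P4 allow shares up to 7.71% and 8.41% by the exact interval. Neurons had 0.00914 Neu4 UMIs per nucleus at P21, against 1.42 in OPC (1.14 to 1.75) and 1.40 in committed oligodendrocytes (1.10 to 1.75). Committed nuclei had the gene earlier, in 5 of 12 at P4, 25 of 33 at P8 and 22 of 55 at P21. In the OPC of P21, 32 of the 64 nuclei had UMIs of both Neu4 and Pdgfra. Of the 40 Neu4 nuclei, 25 also had Gpr17, and 15 did not. These pairings were looked at after the values were seen.

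Matn4 (chromosome 2, 164389393 to 164405160), a matrilin of the extracellular matrix, had 31.5 CPM in E19, 89.2 in P4, 78.1 in P8 and 454 in P21 nuclei. The first 3 stages stayed under 100 CPM and P21 stood apart, with a UMI in 76.6% of nuclei against 27.5% at P8. Vcan (chromosome 13, 89655312 to 89742509), the chondroitin sulphate proteoglycan versican, had 257, 303, 328 and 1012 CPM at E19, P4, P8 and P21. Its E19 to P21 log2 ratio was 1.96 in OPC, -2.57 in protoplasmic astrocytes and -2.23 in neurons. Tnr (chromosome 1, 159523769 to 159931729), which encodes tenascin-R of perineuronal and perinodal matrix, had 1170, 1492, 1551 and 4294 CPM. It differed in the same direction in astrocytes (log2 ratio 1.40) and neurons (1.19), against 1.87 in OPC. At P21 Vcan stood at 4.73 UMIs per OPC nucleus against 0.182 in neurons, and Matn4 at 2.12 against 0.0359. The other genes of the precursor list past 2-fold were Cacng4, an AMPA receptor auxiliary subunit (535, 642, 644 and 1175 CPM), with Nkx2-2 higher and Olig1 lower.

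Integrin alpha 9 (Itga9, chromosome 9, 118606690 to 118901003), a receptor for matrix ligands that include tenascins, followed the same course, with 215 CPM in E19, 244 in P4, 240 in P8 and 972 in P21 nuclei. Of 37 measured matrix and adhesion genes, from a list of 43, 5 were past 2-fold higher at P21 than at E19 (Itga9, Vcan, Tnr, Nrcam and Dscaml1), 2 lower (Col9a1 and Itgb8), and the median log2 ratio was 0.03. The median of this list was thus near that of all genes. Among the 10 genes with the largest E19 to P21 ratios, Dock9, a guanine nucleotide exchange factor for CDC42, was higher at each later stage, with 31.5, 178, 263 and 641 CPM. Its log2 ratio over the span was 4.15 in OPC, 1.06 in astrocytes and -0.41 in neurons. Dock9 was higher still in committed nuclei, with 1047 CPM against 263 in OPC at P8 and 1499 against 641 at P21, and had 211 in myelinating nuclei. Susd5 had 0 UMIs at E19 and then 41.6, 41.0 and 100.2 CPM, at least 6.36-fold higher at P21, and no UMI in astrocytes at E19 or P21. Iffo1, Ninj2, Epas1 and Frmd6 also had 0 UMIs at E19, and were at least 8.70-, 8.06-, 8.06- and 7.43-fold higher at P21. Lrmda (5.25 to 174 CPM) and AC149090.1 (20.98 to 447 CPM) were also among that 10, as was Neu4. At P21, committed nuclei had more than OPC of Iffo1 (321 against 137 CPM), Ninj2 (257 against 127), Lrmda (391 against 174) and AC149090.1 (539 against 447). They had less of Epas1 (6.18 against 127), Frmd6 (39.1 against 117) and Susd5 (49.4 against 100.2). AC149090.1, a clone-named gene on an unplaced scaffold that may share reads with related copies, was also higher in astrocytes (log2 ratio 3.10) and neurons (3.20).

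**Figure D2:**
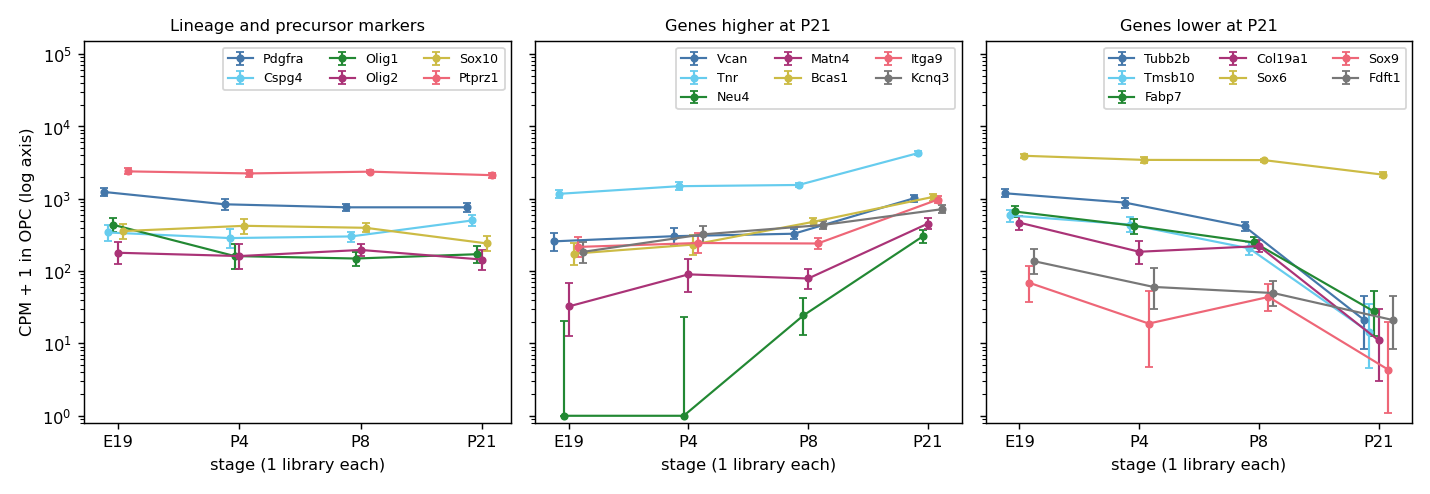
Levels in OPC at each stage in CPM (1 added, log axis) with exact Poisson 95% intervals, 1 library per stage. Of the lineage and precursor markers on the left, Pdgfra and Olig1 each have their highest level at E19. Neu4, Matn4, Vcan, Tnr and Itga9 are highest at P21, and Tubb2b, Tmsb10 and Fabp7 are lower at each later stage. The genes in the middle and right panels were chosen after their values were seen.

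Some genes of committed precursors were higher in OPC at P21. Of 9 such genes at 100 CPM or more, from a list of 15, 4 were past 2-fold higher than at E19 and none lower, with a median log2 ratio of 0.85. The whole list summed to 3667 CPM in OPC at E19 and 5603 at P21, but per nucleus its median share of UMIs was 0.360% and 0.417%, and the highest nucleus had 0.815% and 2.07%. In astrocytes the list summed to 3393 and 6454 CPM. Bcas1, an early marker of oligodendrocytes that begin to differentiate, had 173, 232, 478 and 1058 CPM in OPC. It stood at 4.95 UMIs per OPC nucleus at P21 (4.42 to 5.53), against 0.201 in neurons, 0.0905 in astrocytes and 31.3 in committed oligodendrocytes. Gpr17, a receptor of committed precursors, had 126, 262, 131 and 297 CPM, with no steady course. Sirt2 (73.5 to 254 CPM) and Tns3 (220 to 534 CPM), both tied to differentiation, were the others. Enpp6, a marker of newly forming oligodendrocytes, had 0 UMIs at E19 and P4, 5 at P8 and 20 at P21. At P21 it was found in 9 of 64 OPC (14.1%, 6.64% to 25.02%), 45 of 55 committed nuclei and 69 of 1422 neurons (4.85%), and after thinning to equal depth in 10.9% of OPC (4.51% to 21.2%) and 0.703% of neurons. At least 2 of Enpp6, St18, Bmp4, Myrf and Opalin had a UMI in 6 of 64 OPC (9.38%, 3.52% to 19.3%) and 55 of 55 committed nuclei at P21. The share in neurons, 53 of 1422 (3.73%), lay within the OPC interval. It is a combination chosen after the values were seen.

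Myelin genes were higher in OPC at P21 than at E19, as they were in unrelated cells, and not all stood above the level in those cells. The whole list summed to 189 CPM in OPC at E19 and 1830 at P21. It went from 97.9 to 1028 in astrocytes, 191 to 1126 in vascular and leptomeningeal nuclei, 142 to 1873 in microglia and 87.6 to 411 in neurons. Per nucleus at P21 it gave 8.56 UMIs in OPC, 7.49 in neurons, 7.43 in vascular and leptomeningeal nuclei, 6.30 in microglia and 6.20 in astrocytes. All 5 myelin genes with at least 100 CPM were past 2-fold higher at P21 than at E19, and 12 of the 17 listed did not reach that level. All 5 reached it only at P21, so none could be counted as lower, and the count of 5 follows in part from that cutoff. Mbp, myelin basic protein, had 26.2, 83.2, 54.6 and 177 CPM in OPC from E19 to P21. At P21 it had 0.828 UMIs per OPC nucleus (0.620 to 1.08), 1.27 per neuron, 0.848 per microglial nucleus, 0.504 per vascular and leptomeningeal nucleus and 0.422 per astrocyte, none of which make myelin. After thinning to equal depth, 28.1% of OPC had an Mbp UMI at P21 (17.6% to 40.8%), against 13.2% of neurons (11.5% to 15.1%) and 10.1% of vascular and leptomeningeal nuclei (5.62% to 16.3%), where the unthinned shares were 53.1%, 55.8% and 34.5%. The thinned share was thus higher in OPC than in neurons and in vascular and leptomeningeal nuclei. Microglia and astrocytes were not thinned. Thinning also removed a larger part of the UMIs of neurons, at a median depth of 16388, than of OPC, at 4467. The UMIs per nucleus were not higher in OPC than in neurons and microglia. The part of RNA from outside the nucleus was not tested. St18, a zinc-finger factor, had 0.484 in OPC, 0.466 in neurons, which also express it, and 0.181 in astrocytes. The connexin gene Gjc3 differed: it had 1.02 UMIs per OPC nucleus (0.784 to 1.29), against 0.0774 in neurons, 0.151 in astrocytes and 0.0303 in microglia. Ugt8a, which makes galactolipids of myelin, had 0.797 in OPC (0.593 to 1.05), against 0.295 in neurons and 0.273 in microglia. In committed oligodendrocytes Mbp stood at 61.9 and Gjc3 at 5.71 UMIs per nucleus.

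**Figure D3:**
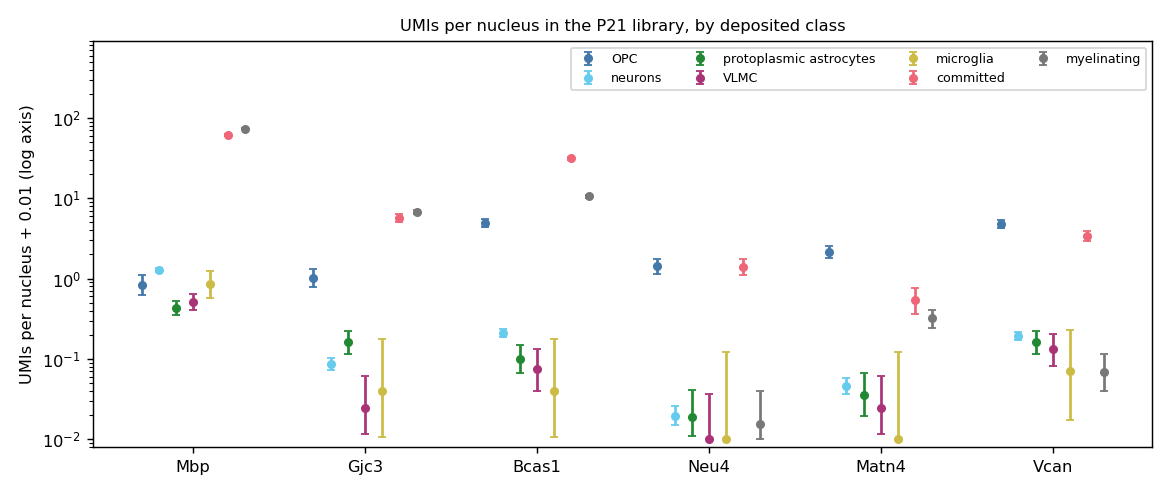
UMIs per nucleus at P21 (log axis) of myelin, commitment and precursor genes in OPC and other classes, with exact Poisson 95% intervals (counting error only, 1 library). Mbp in OPC lies between astrocytes (0.422) and neurons (1.27), while Bcas1, Gjc3, Neu4, Matn4 and Vcan in OPC lie well above neurons.

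Markers of other cell types were measured in OPC in the same way. The 10 neuron markers summed to 1333 CPM in OPC at E19 and 1412 at P21, against 6298 and 9121 in neurons, and none of them was at 0 in any stage. Per nucleus they gave 6.61 UMIs in OPC at P21, 4.30 in astrocytes, 5.25 in vascular cells and 6.12 in microglia. The 10 astrocyte markers gave 5.16 UMIs per OPC nucleus at P21 and 94.4 per astrocyte. Microglial markers summed to 29.7 to 90.2 CPM over the stages, endothelial ones to 5.94 to 57.7 and vascular ones to 20.98 to 82.0, with 2 to 8, 3 to 9 and 2 to 6 of the 10 in each list at 0. At P21, 1 OPC nucleus held 14 of the 27 microglial marker UMIs and 52 of 64 held none. Their part in the differences between stages was not tested. At P4 the transthyretin gene Ttr, a choroid plexus product, had 46 UMIs in OPC against 0, 0 and 2 at E19, P8 and P21. It had the highest E19 to P4 and the lowest P4 to P8 log2 ratio of all, and its 1.10 UMIs per OPC nucleus stood beside 0.871 in neurons, 0.760 in astrocytes and 0.783 in microglia of that library.

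The genes lower in OPC at P21 were led by the transcripts of young cells. Of 16 cytoskeletal and immaturity genes at 100 CPM or more, from a list of 21, 14 were past 2-fold lower at P21 than at E19, none higher, with a median log2 ratio of -3.15. No more than 7 genes of the list reached 100 CPM in OPC at P21. Most of the 16 were thus measured through their E19 level alone and could not be counted as higher. Tubb2b, a beta-tubulin of developing neural cells, had 1191, 886, 414 and 20.03 CPM in OPC at the 4 stages. Tmsb10, an actin-sequestering thymosin, had 588, 440, 205 and 13.4 CPM, and Fabp7, the fatty acid binding protein of radial glia and young astroglia, 666, 422, 248 and 26.7. All 3 were lower at each later stage, and the P8 to P21 step was the widest. The pattern was shared with other cells: Tubb2b had E19 to P21 log2 ratios of -5.58 in OPC, -6.07 in astrocytes and -6.27 in neurons.

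Col19a1, a fibril-associated collagen, was among the 10 lowest ratios without a like difference in those cells. It had 467 CPM in E19, 184 in P4, 221 in P8 and 10.0 in P21 nuclei (2.07 to 29.3, from 3 UMIs). UMIs were found in 47.8%, 26.2%, 37.6% and 3.12% of OPC nuclei. In astrocytes it had at most 2.72 CPM at E19 and P21, and in neurons 10.98 CPM at E19 and 30.9 at P21. Vit, a matrix protein gene, had 163, 95.1, 25.4 and 3.34 CPM, the last from 1 UMI. Gm34923, an unnamed gene model, went from 210 to 6.68 CPM, and was at or below 1.36 CPM in astrocytes and neurons at both ends. Tubb5, Marcksl1, Fabp5 and Tubb2a filled the other places, with log2 ratios of -4.61, -4.10, -4.00 and -3.83.

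Among 24 measured transcription factors, of 36 listed, 4 were past 2-fold higher at P21 than at E19 and 3 lower, with a median log2 ratio of -0.14. The lower ones were Olig1, Sox4 (226 to 33.4 CPM) and Sox11 (168 to 63.4 CPM), the last a pair of factors of immature neural cells. Sox9, a glial specification factor, was lower as well but below 100 CPM, with 13, 3, 22 and 1 UMIs in OPC. In astrocytes its log2 ratio was 0.68. The higher ones were Nkx2-2, Sox8 (73.5 to 214 CPM), a partner of Sox10, Zeb2 (399 to 1015 CPM), which is needed for differentiation to myelinating cells, and Nfix (73.5 to 180 CPM). Sox6, which holds OPC back from differentiating, had 3929, 3447, 3427 and 2150 CPM, a log2 ratio of -0.87 that did not reach 2-fold.

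Of 13 (of 30 listed) growth factor and cytokine receptor genes 2 were past 2-fold higher at P21, none lower, and the median log2 ratio was -0.22. Gpr37l1, an orphan receptor of glia, had 15.7, 89.2, 64.4 and 197 CPM, and Lifr, the leukaemia inhibitory factor receptor, 47.2 and 114 CPM at E19 and P21. Pdgfra itself had a log2 ratio of -0.70. Egfr, which drives expansion of early progenitors, stayed under 100 CPM, with 10, 6, 23 and 1 UMIs. Of 4 measured Notch pathway genes, from a list of 15, none was past 2-fold, with a median log2 ratio of -0.66. The 2 measured secreted ligands and differentiation brakes did not pass 2-fold either, and 21 more of that list were below 100 CPM.

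OPC carry receptors and channels through which they sense neuronal activity, and most of these differed little between E19 and P21. Of 16 glutamate receptor genes, from a list of 23, 1 was past 2-fold higher and 2 were lower, with a median log2 ratio of 0.14. Grm5, a metabotropic receptor, had 530, 499, 843 and 1189 CPM. Its log2 ratio was 1.16 in OPC and -1.30 in astrocytes. The NMDA receptor subunit genes Grin1 (152 to 66.8 CPM) and Grin2b (147 to 70.1 CPM) were the lower ones, while the AMPA receptor subunit gene Gria2 had 934 CPM at E19 and 888 at P21. Of 11 genes for GABA and other receptors, from a list of 28, Gabrg3 (83.9, 279, 193 and 397 CPM) and the ATP receptor gene P2rx7 (57.7 to 154) were past 2-fold higher and Gabrg1 (110 to 33.4) lower. Of 16 ion channel genes, from a list of 32, 3 were higher and none lower: Kcnq3, a subunit of the M-current (184, 321, 433 and 718 CPM), the channel-interacting Kcnip4 (320 to 895) and Cacng4. Kcnd2, the A-type potassium channel, had 6946 CPM at E19 and 4100 at P21, a log2 ratio of -0.76.

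Of 18 guidance genes, from a list of 42, 2 were past 2-fold higher and 2 lower. Sema3d, a secreted semaphorin, had 36.7, 119, 133 and 280 CPM, and Ntn1, netrin-1, 199, 315, 277 and 494. Sema6d (2875 to 1416) and Plxna2 (257 to 100.2), a transmembrane semaphorin and a plexin, were lower. Of 9 genes of cholesterol and lipid synthesis, from a list of 26, 6 were past 2-fold lower and none higher, with a median log2 ratio of -1.14. Only 3 genes of the list reached 100 CPM at P8 or P21. Most of the 9 were thus measured through their E19 level alone and could not be counted as higher. Hmgcs1, an early enzyme of the mevalonate pathway, had 178, 172, 82.0 and 46.7 CPM in OPC, with E19 to P21 log2 ratios of -1.83 in OPC, -1.74 in astrocytes and -1.75 in neurons. Fdft1, squalene synthase, had 136, 59.4, 48.8 and 20.03 CPM.

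The genes that led single steps mostly rested on few UMIs. From E19 to P4 the leaders beside Ttr and AC149090.1 were Rad51b, a homologous recombination gene (10.5 to 172 CPM), and Unc13c, a presynaptic priming factor (31.5 to 285), and Unc13c stayed near that level, at 240 and 304, while Rad51b went back to 20.03 CPM at P21. Lowest were Adamts3, a procollagen protease (199 to 17.8 CPM), Tsnax (126 to 11.9), Gm44593 (147 to 17.8) and the cyclophilin Ppia (304 to 83.2). From P4 to P8 Iqsec2, Pex14, Plcg1 and Tmlhe had the highest ratios, with 17.8 to 103, 29.7 to 117, 35.7 to 105 and 35.7 to 105 CPM. Those 4 genes also had higher levels at E19 than at P4, from 42.0 to 110 CPM, so the P4 library held their low point. Crmp1 (166 to 50.7 CPM), Atp5g1 (137 to 42.9) and Cadm3 (160 to 52.7) were lowest beside Ttr.

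None of 32 cell cycle genes reached 100 CPM in OPC at E19 or P21, although OPC divide. A UMI of Mki67 or Top2a, genes of dividing cells, was found in 3 of 46 OPC of E19, 9 of 42 of P4, 8 of 109 of P8 and 3 of 64 of P21. The deposited annotation holds a separate class of dividing cells, and OPC genes were found there. A Pdgfra UMI was present in 13 of 36 dividing nuclei of E19, 15 of 25 of P4, 27 of 35 of P8 and 9 of 10 of P21. Their Pdgfra level was 339 CPM in E19, 331 in P4, 712 in P8 and 865 in P21 nuclei, the last beside 761 in OPC. Of all OPC and dividing nuclei with a Pdgfra UMI, the dividing class held 22.4% (12.5% to 35.3%), 27.3% (16.1% to 41.0%), 21.6% (14.7% to 29.8%) and 14.1% (6.64% to 25.02%) from E19 to P21. These intervals overlapped across all 4 stages. Only 1 of the 64 dividing nuclei with Pdgfra carried at least 2 vascular markers. The OPC label therefore left out nuclei in division that carried Pdgfra, and the OPC shares above are of nuclei outside that class. This criterion was chosen after the values were seen.

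OPC were then set against the later lineage subtypes within the same library. Against 33 committed nuclei at P8, 413 of 2361 genes were past 2-fold higher in OPC (17.5%) and 334 lower (14.1%). Against 55 committed nuclei at P21, 691 of 2579 were higher (26.8%) and 558 lower (21.6%), and against 187 myelinating nuclei 756 of 2669 higher (28.3%) and 615 lower (23.0%). The authors' subtypes were made from these same profiles, so the ratios describe the labels and are no test of them. Genes that reached 100 CPM in OPC alone could not be counted as lower. Those that reached it in the other subtype alone could not be counted as higher. Scaling by median of ratios in place of CPM moved the median over all genes from 0.12 to -0.13 for committed and from 0.08 to -0.14 for myelinating nuclei at P21, and ratios near those sizes carry no direction.

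The genes highest in OPC against both subtypes included Pdgfra, which had 761 CPM in OPC and 9.52 in committed nuclei at P8, and 761, 4.12 and 3.19 in OPC, committed and myelinating nuclei at P21. Kcnip3, a calcium-binding channel partner, had 857 against 28.6 CPM at P8, and 1145, 2.06 and 5.74 at P21. Etv4 and Etv5, ETS factors downstream of growth factor signalling, had 220 and 237 CPM in OPC at P21, and 0 and 2.06 in committed nuclei. Megf11, Cspg5, Emid1 and Chst11 were the others by rank. At the low end stood Mag, Mog and Mbp of myelin, St18, Cldn14, Gramd3, Cnksr3 and Nkain2.

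Of the precursor list 9 of 19 measured genes were past 2-fold higher in OPC than in committed nuclei at P8 and 3 lower, 13 of 20 higher at P21 and 18 of 20 against myelinating nuclei, with none lower at P21. The medians of the log2 ratio were 0.65, 2.52 and 5.65. Tnr was a gene of this list that did not mark OPC: it had 1551 CPM in OPC and 10202 in committed nuclei at P8, 4294 and 7347 at P21, and 32.5 in myelinating nuclei. Neu4 had 23.4 CPM in OPC and 252 in committed nuclei at P8, and 304 and 159 at P21. Sox10 was lower in OPC at both ages, with 396 against 690 CPM and 240 against 455. Commitment genes were lower in OPC than in committed nuclei for 11 of 12 genes at P8 and 11 of 13 at P21, and all 7 and all 11 measured myelin genes were lower. Bcas1 had 478 against 5824 CPM at P8 and 1058 against 3545 at P21. Against myelinating nuclei 7 of 12 commitment genes were higher in OPC and 2 lower.

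Many receptor and channel genes stood higher in OPC. Of the ion channel list 10 of 16 were past 2-fold higher than in committed nuclei at P8 and 13 of 18 at P21, with 1 lower each time, and 13 of 19 were higher and 3 lower than in myelinating nuclei. Kcnd2 had 5597 against 918 CPM at P8, and 4100, 218 and 189 in OPC, committed and myelinating nuclei at P21. Of GABA and other receptors 6 of 9, 8 of 9 and 8 of 9 were higher in OPC in those comparisons, with 0, 0 and 1 lower. Of glutamate receptors 5 of 16, 8 of 14 and 11 of 15 were higher, with 0, 1 and 1 lower. Grm5 had 1189, 121 and 88.0 CPM in OPC, committed and myelinating nuclei at P21. Genes of cholesterol and lipid synthesis were the reverse at P21, with 9 of 11 lower in OPC than in committed nuclei and 6 of 9 lower than in myelinating ones. No more than 3 genes of the list reached 100 CPM in OPC at P21. Most of the 11 and of the 9 were thus measured through the later subtype alone and could not be counted as higher in OPC. At P8 none of 3 was past 2-fold against committed nuclei. Hmgcs1 had 46.7 CPM in OPC at P21 against 274 and 295.

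**Figure D4:**
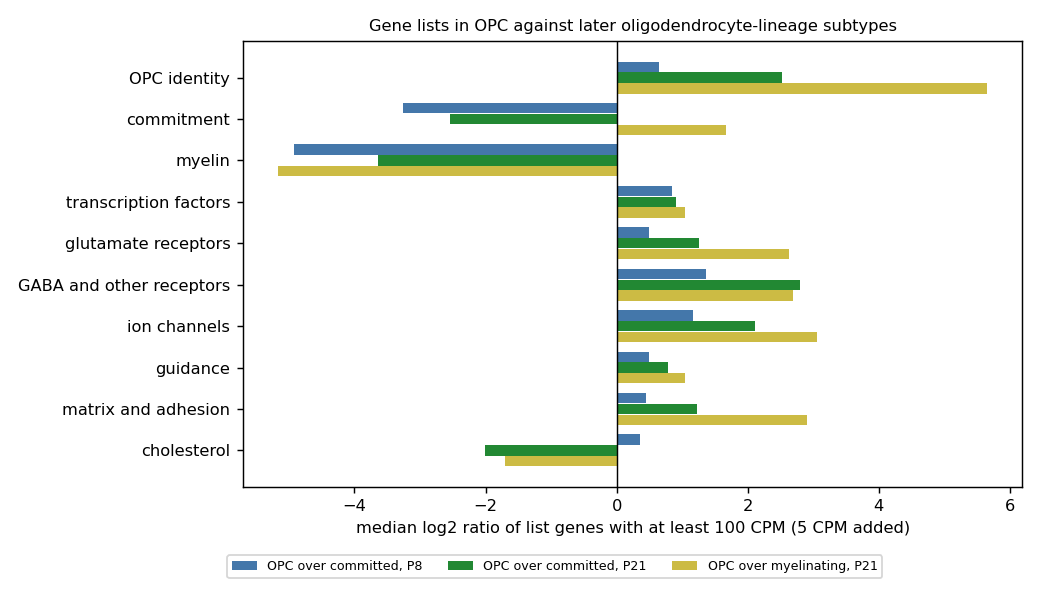
Median log2 ratio of OPC over later lineage subtypes in the same library, for genes of each list with at least 100 CPM in the higher subtype (5 CPM added), as bars from 0. Precursor genes are higher in OPC (5.65 over myelinating nuclei), myelin genes lower (-5.16), and commitment genes lower than in committed nuclei but higher than in myelinating ones.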

How the data were processed

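Single-nucleus RNA was sequenced in 4 libraries, and the authors deposited 1 matrix of UMI counts per gene and nucleus (31053 genes, 9724 nuclei), not normalised, with a table of each nucleus's stage, class, subtype and cluster. Per the labels, reads were aligned with Cell Ranger 3.0.2 to a pre-mRNA reference built on mm10, so intronic reads count, and 2000 nuclei a sample were aimed at. The deposited table gives the percent of mitochondrial and of ribosomal protein UMIs per nucleus. The deposited nuclei hold at least 2355 UMIs and at most 5% mitochondrial UMIs. Filters, doublet removal, integration, naming of subtypes and strand use are not given in the sources used here, and no doublet caller was run. The OPC maximum was 9577 UMIs in 1 nucleus. Recomputed UMI and gene totals were identical in all 9724 nuclei. A further 6 per-nucleus columns were not used.

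For each library and subtype, UMIs of its nuclei were added up and scaled to CPM (Python 3.11.15, numpy 2.4.6, scipy 1.17.1, pandas 2.3.3). A log2 ratio was taken after adding 5 CPM to each side (changes of weak genes are understated) and was counted past 2-fold at 100 CPM in the higher group. For folds against 0, a floor of 3 counts was used for each library and subtype. Shares were also computed after thinning nuclei to 2000 UMIs. The calculation was tested on simulated data. Gene positions are from GENCODE M21 on GRCm38 (31011 of 31053 identifiers found); some genes overlap others (Pdgfra 1 on the same strand, Tnr 2), and their UMIs could be shared.

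Genes named are Pdgfra and Cspg4, the 10 largest rises and falls from E19 to P21 and 4 per step (at least 20 UMIs, at most 25% of them from 1 nucleus), the 8 highest and lowest against other subtypes, and in each of 21 lists the 3 largest rises and falls and the 4 highest. Other list genes were picked once values had been seen. The members and lists were chosen with earlier results of these data known. Not every gene the rule selected is described, and 1 is not reported here.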

Additional observations from a re-analysis of the deposited data

How the results depend on the processing

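Each stage was 1 library, so no library could be left out and no difference between stages can be checked against replicates. No paired analysis was possible because each stage has 1 library and the result comes from no test. Of the summary values recomputed under other settings, 175 stayed near the value given and 20 moved. Choosing lineage nuclei by more precursor than later-lineage UMIs gave OPC lineage shares of 88.9% at P4 and 86.0% at P8. The counts past 2-fold depend on depth and cutoff. From E19 to P4 they were 80 higher and 60 lower with 20 CPM added, 904 and 911 at a minimum of 20 CPM, and 239 and 213 after thinning. From P4 to P8 they were 19 and 54, 450 and 687, and 95 and 193 under the same settings. From P8 to P21 they were 455 and 609 at 20 CPM and 177 and 125 after thinning, and from E19 to P21 982 and 1534 at 20 CPM. Of single genes, 706 values stayed, 36 moved and 2 reversed, namely Mag (-1.67) and Oprl1 (2.51) from E19 to P21 after thinning, both from few UMIs. After thinning, 4 of the 10 largest rises and 9 of the 10 largest falls were still among the top 10, ranked without the limit on UMIs from 1 nucleus, where 9 and 10 are so at unchanged settings. A minimum of 2000 UMIs removed no nucleus. List medians were recomputed for E19 to P21 and for lists with at least 3 measured genes, and were not run for single steps, and a lower minimum leaves the ratio of a single gene as it is. Genes under 100 CPM rest on few UMIs.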
